A study of Mus musculus with 240 samples.

Results

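The 10 genes followed here, Cldn5, Cdh5, Pecam1, Esam, Flt1, Kdr, Tek, Tie1, Vwf and Ly6c1, are markers of endothelial cells, the cells that line blood vessels. They were taken by symbol from a table of 34623 genes, and all 10 were found and passed the filter on low counts. Endothelial cells of the brain are joined by claudin and cadherin junctions into the blood-brain barrier, and are held in a resting state by angiopoietin signalling through the receptor Tek. Vascular endothelial growth factor (VEGF) acts on them through Kdr, the main signalling receptor, while Flt1 binds the ligand tightly and also acts as a decoy. Oligodendrocyte precursor cells (OPCs), the glial cells sampled in this study, lie along vessels. Which cells the transcripts described below came from was not tested.

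The study took OPCs from mouse brain by laser capture microdissection, in which cells are cut from a section under the microscope. There were 48 bulk libraries from 37 animals (total RNA, linear amplification with T7 RNA polymerase, sections of 10 µm, tdT-positive by the sample names) and 192 small libraries (polyadenylated RNA, PCR amplification, sections of 8 µm). The bulk groups were CKO, with genotype Trp53-/- Nf1-/-, at 12 and 90 days from the start of tamoxifen (dpi in the sample names; 7 animals each), wild-type (WT) at 12 and 90 dpi (5 animals each) and at 150 dpi (6 animals), and brain tumour cells of genotype Trp53-/- Nf1-/- at 150 dpi (7 animals). The small libraries, all Trp53-/- Nf1-/- at 12 or 90 dpi, comprised 14 libraries of 10 cells captured as such (10-cell) in each of 4 sets per time and, over all sets, 80 of 10-cell equivalents drawn after pooling (pool-and-split). Time is given in this way for every group, WT included. Of the bulk animals 19 were male and 18 female. Strain, age and the driver of the deletion are not given in the sources used here. Each bulk animal counted as 1 replicate, with the 2 libraries of 11 animals summed. The 7 tumours gave 14 libraries, the CKO animals 8 at 12 dpi and 10 at 90 dpi, and each WT animal 1. Summing thus fell on tumours and CKO animals alone, and its part in differences from WT cannot be told apart.

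Levels are counts scaled to a library total of 1000000 (CPM). Bulk totals ran from 0.0937 to 23.2 M counts (M, 1000000), and the lowest belonged to WT_21167 at 90 dpi. There 1 count equalled 9.48 CPM, and Cldn5, Pecam1, Esam and Tie1 had 0 counts, which allows up to 28.4 CPM (3 counts, counting error only). A second library stood apart: of the 2 libraries of CKO_20647 at 90 dpi, 1 had 0 counts for Cldn5, Esam, Kdr and Tie1 and 59.1 CPM of Cdh5, against 8.73 CPM of Cdh5 in the other. The OPC markers (8 genes) summed to between 875 and 1763 CPM in the 30 animals without a tumour and to between 1670 and 4231 CPM in tumours. In WT animals at 150 dpi 5 neuronal markers summed to between 5886 and 9211 CPM, and in tumours to between 200.1 and 1221 CPM. In bulk captures, fewer endothelial cells and less RNA of a gene per endothelial cell cannot be told apart.

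All 10 genes are protein coding (GRCm38 coordinates). Cldn5 lies on chromosome 16 from 18776847 to 18778260 in 1 exon, Cdh5 on chromosome 8 from 104101625 to 104144511, Pecam1 on chromosome 11 from 106654217 to 106750628, and Esam on chromosome 9 from 37528078 to 37538319. The VEGF receptors both lie on chromosome 5, Kdr from 75932827 to 75978458 and Flt1 from 147561604 to 147726011. The angiopoietin receptors both lie on chromosome 4, Tek from 94739289 to 94874976 and Tie1 from 118471191 to 118490061. Vwf spans 125546774 to 125686679 on chromosome 6, and Ly6c1 spans 75044018 to 75048830 on chromosome 15. No exon of any of them overlapped an exon of another gene. Ly6c1 has a near-identical neighbour, Ly6c2 (97.6% identity over 822 bases), so reads of these 2 genes may have been split between them. Ly6c2 had group medians of 0.449 to 1.71 CPM in bulk. It came closer to Ly6c1 in some animals: Tumor_21349 had 4.88 CPM of Ly6c2 against 7.95 of Ly6c1, Tumor_16840 had 4.12 against 10.1, Tumor_21354 had 9.57 against 28.0, and WT_21167 had 1 count of each.

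Promoters are shown for Flt1, Kdr and Tie1, receptors whose levels passed a test in tumours (below). Entries of the RefSeq promoter table (GRCm38.p6) matched 6 of the 10 genes. The sequences are the 250 bases upstream of the RefSeq start site, which need not be the outermost start of the gene. Capitals mark GGAAG or its reverse complement CTTCC, a core sequence bound by ETS factors such as Erg, which control many endothelial genes.
Flt1, chr5:147726012-147726261, minus strand: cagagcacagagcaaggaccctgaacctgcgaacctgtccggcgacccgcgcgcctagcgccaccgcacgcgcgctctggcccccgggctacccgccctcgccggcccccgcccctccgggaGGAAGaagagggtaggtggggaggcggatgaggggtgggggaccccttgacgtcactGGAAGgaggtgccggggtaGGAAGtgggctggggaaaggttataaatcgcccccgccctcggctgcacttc
Kdr, chr5:75978456-75978705, minus strand: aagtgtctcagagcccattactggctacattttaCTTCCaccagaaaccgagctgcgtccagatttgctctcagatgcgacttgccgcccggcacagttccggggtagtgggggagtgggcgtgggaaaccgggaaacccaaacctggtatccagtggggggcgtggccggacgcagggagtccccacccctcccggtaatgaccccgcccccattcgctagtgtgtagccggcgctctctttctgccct
Tie1, chr4:118489850-118490099, minus strand: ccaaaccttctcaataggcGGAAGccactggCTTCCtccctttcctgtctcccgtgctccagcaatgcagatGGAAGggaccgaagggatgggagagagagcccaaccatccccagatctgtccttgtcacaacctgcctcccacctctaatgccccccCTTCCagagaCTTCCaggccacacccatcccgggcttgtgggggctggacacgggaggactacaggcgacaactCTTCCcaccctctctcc
Flt1 held 3 matches, Kdr 1 and Tie1 6. Most of the Tie1 window lies inside the span of the gene given above, which ends at 118490061. Some of the Tie1 matches thus fall within the annotated gene. The motif occurred in 64.1% of 32851 mouse promoters of this length, with a median of 1 match, and 3 or more matches occurred in 10.7%. Flt1 also held TATAAA, found in 12.4% of promoters. Cldn5 and Tek held no match to GGAAG in this window. A match is a description of letters and no sign that a factor was bound.

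Compared per kilobase of the longest coding transcript, Ly6c1 was the most abundant of the 10 genes in each of the 6 bulk groups, with means of 19.8 to 34.4 CPM per kb, followed by Flt1 with 8.84 to 15.9 CPM per kb. Tie1 was lowest in each bulk group, with 0.350 to 0.803 CPM per kb. Pecam1 (6.33 to 11.1 CPM per kb) and Cldn5 (3.64 to 10.4 CPM per kb) came next after Flt1. Few neighbours in this order were separated. Ly6c1 and Flt1 did not overlap between animals in 12 dpi CKO, 12 dpi WT and 150 dpi WT, but did in the other bulk groups, and the genes from Cldn5 down to Kdr overlapped with their neighbours in every bulk group.

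The small libraries gave another order per kilobase. Ly6c1 (188 to 540 CPM per kb) and Cldn5 (143 to 219 CPM per kb) led in all 4 groups of sets, Esam followed with 32.3 to 54.3 CPM per kb, and Pecam1 had 0.391 to 1.36 and Cdh5 0.0206 to 0.0991 CPM per kb. Kind of library, amplification, RNA fraction and section thickness all differ between bulk and small libraries, so these differences cannot be told apart from chemistry, and no test was made across them.

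The design asks first whether the deletion of Trp53 and Nf1 changed the vascular signal before tumours arose, and then how tumours compare with WT tissue and with earlier CKO captures. Genes were called with edgeR where the p adjusted by Benjamini-Hochberg over 16349 tested genes was under 0.05. Between CKO and WT at 12 dpi none of the 10 endothelial genes was called (0.0183% of all genes were). All 10 estimates were below 0, with a median log2 fold change of -0.40 against 0.03 over all genes, and Flt1 alone had an unadjusted p under 0.05. At 90 dpi again none was called (0.0489% of all genes), all 10 estimates were below 0, the median was -0.60 against 0.04, and 3 genes had an unadjusted p under 0.05. DESeq2 also called none of the 10 at either time. At 90 dpi, leaving out WT_21167 or CKO_20647 kept all 10 estimates below 0 and none called (medians -0.64 and -0.63). The 10 estimates share animals and libraries, so their shared sign is not 10 separate observations.

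In tumours against WT at 150 dpi 2 of 10 were called, against 46.2% of all genes (24.3% higher and 21.9% lower): Vwf was higher and Flt1 lower. The median log2 fold change of the 10 was -0.26 against 0.06 over all genes. In tumours against CKO at 90 dpi 3 of 10 were called, against 49.1% of all genes (26.4% higher and 22.6% lower): Vwf, Kdr and Tie1, all higher. The median was 0.31 against 0.12. Without CKO_20647 the count was also 3, of Vwf, Kdr and Cdh5. Under size factors that assume a different reference (RLE, and DESeq2) the median of all genes moved to 0.22 and 0.21 against WT and to 0.29 against CKO, and the medians of the 10 moved with it, to -0.11 against WT and 0.48 against CKO. The WT animals at 150 dpi and the CKO animals at 90 dpi are different comparison groups, but both comparisons share the 7 tumours. No gene of the 10 separated the groups without overlap in any of these comparisons (of all genes, 1.33% did between CKO and WT at 12 dpi, 0.758% at 90 dpi, 15.7% in tumours against WT and 17.2% in tumours against CKO).

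**Figure D1:**
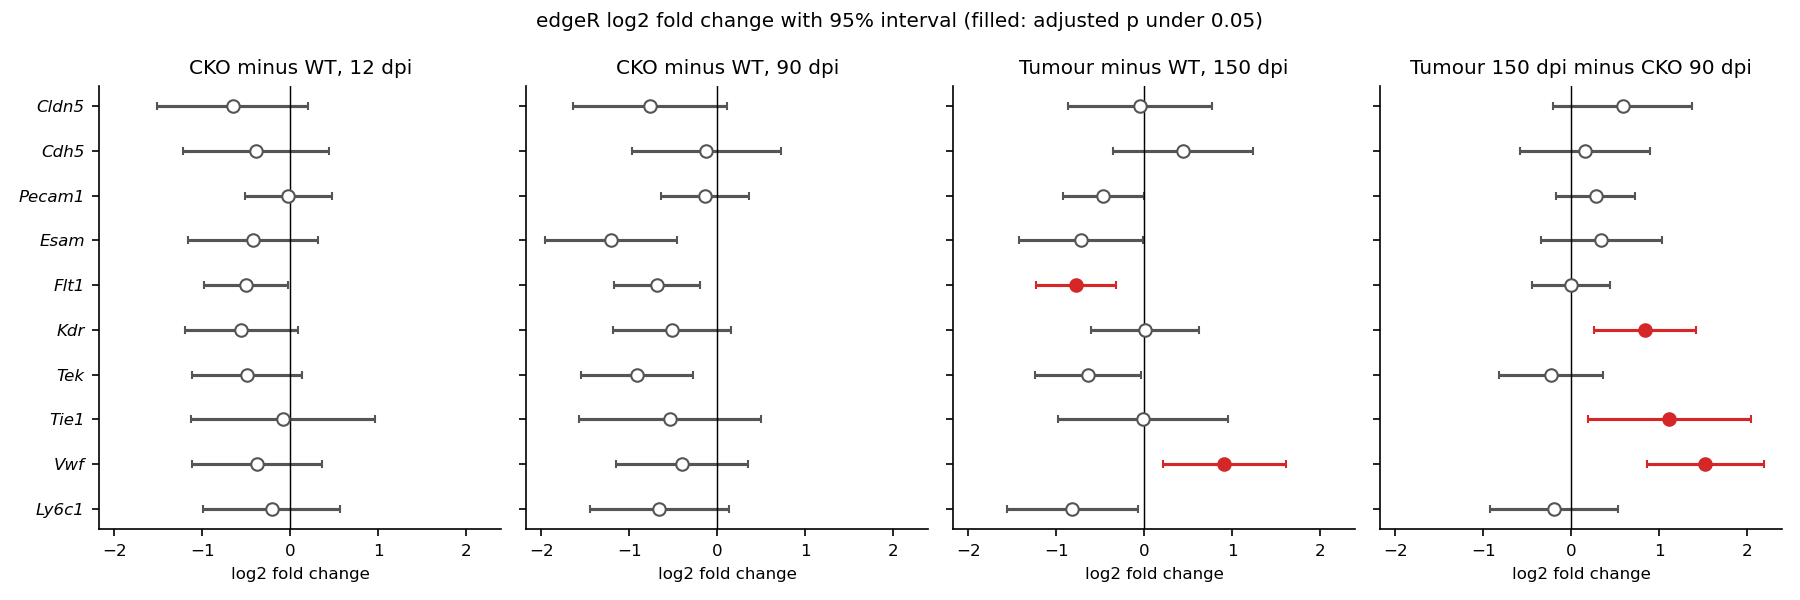
Each point is an edgeR log2 fold change of 1 gene in 1 comparison (x axis, log2 scale), the bar is its 95% interval, and filled points passed an adjusted p of 0.05. Both panels for 12 and 90 dpi hold 10 points left of 0 and no filled point, the tumour against WT panel has Vwf filled to the right and Flt1 filled to the left, and the tumour against CKO panel has Kdr, Tie1 and Vwf filled to the right.

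Among the junction and adhesion genes, Esam, an adhesion molecule of endothelial tight junctions, had the largest CKO to WT difference at 90 dpi. Its levels in WT animals were 0 (WT_21167), 14.2, 8.54, 7.25 and 5.80 CPM, and in CKO animals they ran from 2.02 to 5.40 with a median of 3.24 CPM. Apart from the shallow WT_21167, every WT animal lay above every CKO animal. With WT_21167 the groups overlapped, and how many of all genes separate without it was not counted. The log2 fold change of Esam was -1.21 (SE 0.37), with an unadjusted p of 0.0025 and an edgeR adjusted p of 0.593. Without WT_21167 it was -1.28 (adjusted p 0.530), and without CKO_20647 it was -1.12 (adjusted p 1.00). At 12 dpi Esam ran from 3.88 to 10.7 CPM in CKO (median 7.23), and the WT animals had 3.99, 4.91, 15.1, 13.3 and 10.9 CPM, with a log2 fold change of -0.42 (SE 0.36). In tumours it ran from 1.21 to 6.91 CPM (median 4.94) and in WT at 150 dpi from 4.59 to 10.4 CPM (median 7.10). That difference of -0.72 (SE 0.35) had an edgeR adjusted p of 0.0920, and 7 of 7 tumours were below the WT mean. Without Tumor_21354 it was -0.87 (adjusted p 0.0459). This was 1 of 19 alternative settings, the only 1 past the threshold, and in the others the adjusted p reached 0.226.

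Cldn5, the main claudin of the blood-brain barrier, had 9.81 ± 4.55 CPM in 12 dpi CKO captures (SD, n = 7), and the WT animals had 5.35, 17.1, 27.4, 9.87 and 13.7 CPM. CKO captures of 90 dpi had 5.16 ± 2.54 CPM (SD, n = 7), and the WT animals had 0 (WT_21167), 12.4, 10.3, 5.45 and 7.72 CPM. At 150 dpi tumours had 7.11 ± 3.70 (SD, n = 7) and WT animals 7.46 ± 4.12 CPM (SD, n = 6). The groups overlapped throughout, and the tumour to WT log2 fold change of Cldn5 was -0.05 (SE 0.40), with a 95% interval from -0.87 to 0.77. Cdh5, the cadherin of endothelial adherens junctions, ran from 2.69 to 24.6 CPM in tumours (median 10.5) and from 5.10 to 11.4 in WT at 150 dpi (median 9.26). The lowest and the highest of these 13 animals were both tumours, and the log2 fold change of Cdh5 was 0.44 (SE 0.39, edgeR adjusted p 0.374).

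The comparison of Cdh5 between tumours and CKO at 90 dpi turned on 1 library. CKO_20647 had 30.8 CPM where the other 6 CKO animals had 5.65 to 11.3 CPM. With that animal the log2 fold change of Cdh5 was 0.16 (edgeR adjusted p 0.748), without it 0.80 (adjusted p 0.0336), and with the deepest library of each animal 0.79 (adjusted p 0.0262). Against WT at 90 dpi, Cdh5 in CKO was -0.13 with CKO_20647 and -0.76 without it (adjusted p 1.00 in both).

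Pecam1, an adhesion molecule of endothelial cells and platelets, varied little between repeat libraries of an animal (SD of log2 CPM 0.253). It was at 38.2 ± 6.29 CPM in WT animals (SD, n = 6) and 28.0 ± 10.1 in tumours (SD, n = 7) at 150 dpi. The tumours held both the lowest value, 18.2, and the highest, 47.3 CPM, of these animals. The log2 fold change of Pecam1 was -0.47 (SE 0.23, edgeR adjusted p 0.0941), and without Tumor_21256, the animal at 47.3 CPM, it was -0.65 (adjusted p 0.0122). Of 20 alternative settings only this 1 passed the threshold, and in the others the adjusted p reached 0.267. At 12 dpi CKO (29.5 ± 8.31 CPM; SD, n = 7) and WT (29.4 ± 7.22; SD, n = 5) had like means. The log2 fold change was -0.03 there, with a 95% interval from -0.52 to 0.47, and its sign changed in 6 of 19 alternative settings. Of 5 platelet markers 3 were tested in tumours against WT, 2 of them with an estimate below 0 (median -0.11) and none called, and their sum ran from 1.11 to 4.94 CPM in tumours and from 2.61 to 4.34 in WT. Their part in Pecam1 was not tested.

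**Figure D2:**
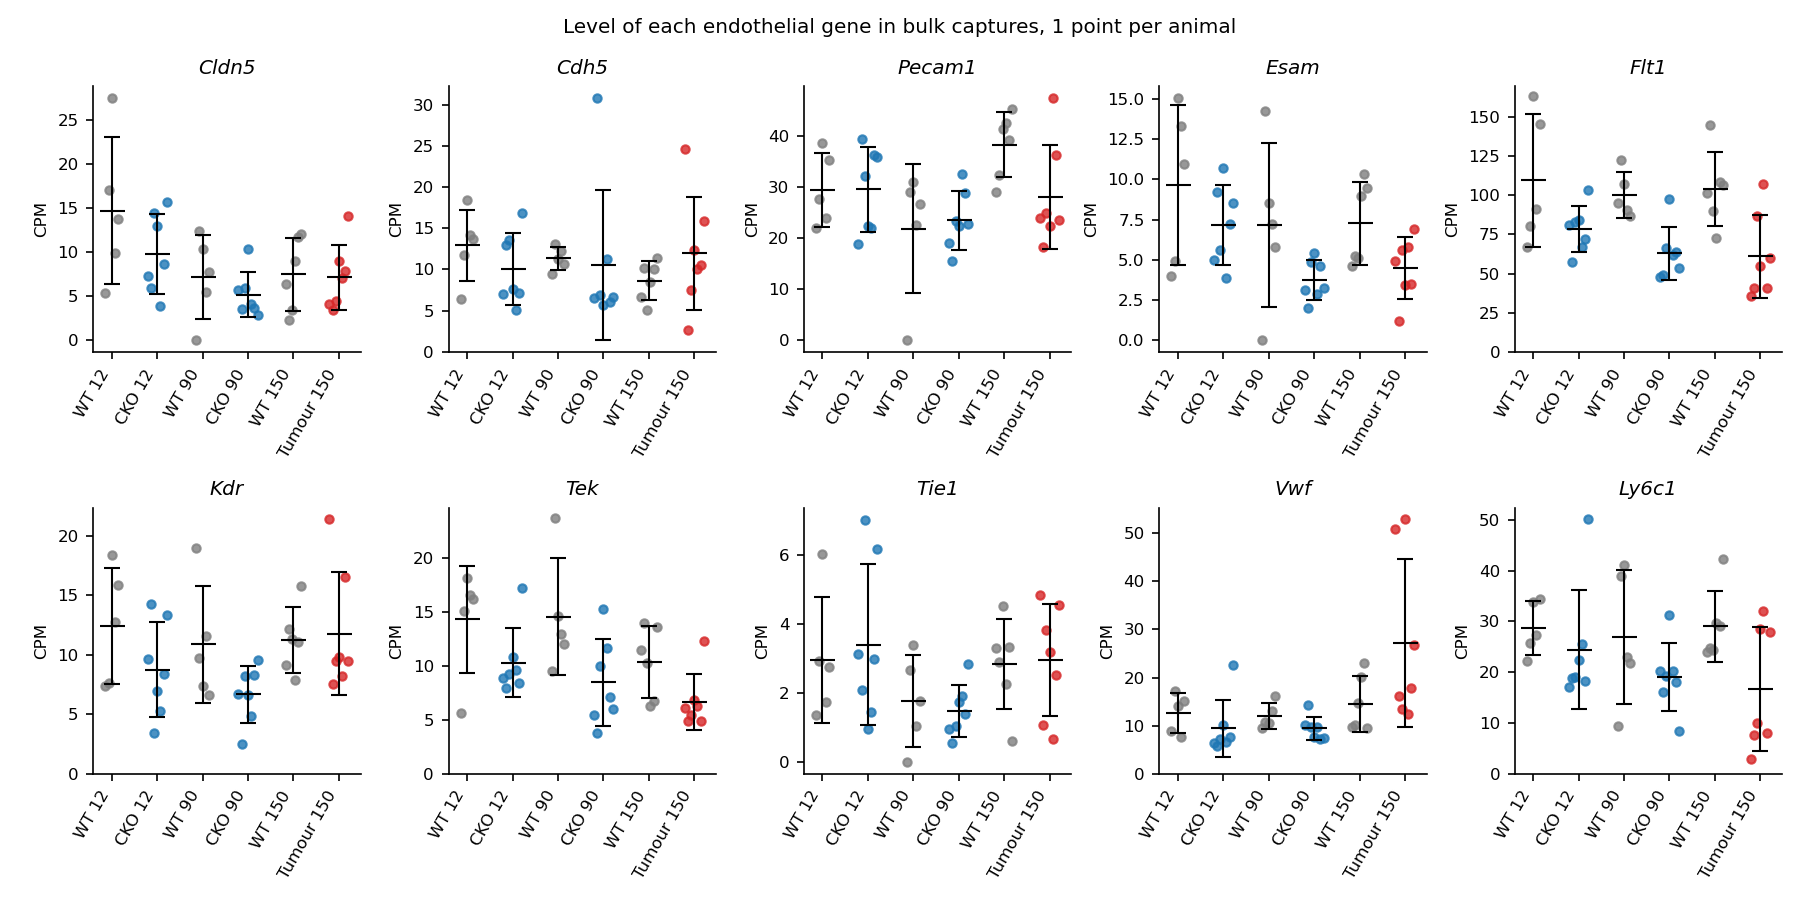
Each panel shows the CPM of 1 gene (linear y axis from 0), 1 point per animal, with the mean and SD as bars, in WT, CKO and tumour captures at 12, 90 and 150 dpi. Vwf stands out in tumours with 2 animals above 50 CPM, Flt1 sits lower in tumours than in WT at 150 dpi, and WT_21167 gives the points at 0 at 90 dpi.

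Flt1, the VEGF receptor that also acts as a decoy, was the gene with the most reads behind it and was lower in tumours than in WT. Tumours ran from 35.6 to 107 CPM with a median of 55.2, and WT animals at 150 dpi from 73.0 to 144 CPM with a median of 104. Of the 7 tumours 5 lay below every WT animal. The log2 fold change was -0.78 (SE 0.22, edgeR adjusted p 0.0044), and the values without any 1 animal stayed past the threshold (adjusted p at most 0.0223). Fitting only tumours and WT gave -0.72 with an adjusted p of 0.0504.

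The level of Flt1 in tumours was that of CKO captures at 90 dpi, which ran from 48.2 to 97.5 CPM with a median of 61.8. The tumour to CKO log2 fold change was -0.01 (SE 0.22), with a 95% interval from -0.45 to 0.43. WT animals at 90 dpi had 94.8, 122, 107, 90.3 and 86.5 CPM, above all CKO animals but 1. This CKO to WT difference of -0.69 (SE 0.24) had an unadjusted p of 0.0069 and an edgeR adjusted p of 0.773. At 12 dpi CKO animals ran from 57.3 to 104 CPM (median 81.2), and the WT animals had 66.8, 80.5, 163, 91.1 and 145 CPM, a log2 fold change of -0.50 (SE 0.24, unadjusted p 0.0390, adjusted p 0.999). The difference of Flt1 from WT did not change past the threshold between CKO at 90 dpi and tumours at 150 dpi (-0.09, SE 0.33, edgeR adjusted p 0.878).

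Kdr, the signalling receptor of VEGF, differed from Flt1 in its pattern. Tumours ran from 7.54 to 21.4 CPM with a median of 9.48, CKO captures at 90 dpi from 2.51 to 9.53 with a median of 6.73, and WT captures at 150 dpi from 7.84 to 15.8 with a median of 11.2. Tumor_16713 (21.4 CPM) and Tumor_21349 (16.5 CPM) were the highest of these animals, 4 others lay within the CKO range, and Tumor_16844 at 9.76 CPM lay just above it. Kdr rose in tumours against CKO at 90 dpi, with a log2 fold change of 0.84 (SE 0.29, edgeR adjusted p 0.0150), and in the absence of Tumor_16713 this was 0.67 (adjusted p 0.0553). Without CKO_20647 it was 0.70 (adjusted p 0.0392). Against WT the log2 fold change of Kdr was 0.01 (SE 0.30), with a 95% interval from -0.61 to 0.62.

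The other genes of VEGF signalling did not share 1 direction. Of 8 tested ligands and receptors, 3 were higher and 1 lower in tumours than in WT, with a median log2 fold change of 0.37. Of all genes 24.3% were higher and 21.9% lower, so 4 of 8 is near the share of all genes called (46.2%). Nrp1, a VEGF co-receptor, was at 25.5 against 5.56 CPM (log2 2.13, edgeR adjusted p 1.3e-05). Flt4, the receptor of lymphatic VEGF ligands, was at 11.7 against 2.92 CPM (1.97, adjusted p 0.0133), and the ligand Vegfd, at 0.882 against 0.0271 CPM, was near the limit of detection. Vegfa, the main ligand, was lower, at 46.5 against 81.5 CPM (-0.80, adjusted p 0.0440), and against CKO at 90 dpi (41.5 CPM) it was not called (0.14, adjusted p 0.743). In tumours against CKO at 90 dpi 3 of the 8 were called, all higher, where 49.1% of all genes were called and 26.4% were higher. The fold of Vegfd depends on the few counts in WT and is not given.

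Tek, the receptor of the angiopoietins (also called Tie2), had no called difference. Its WT levels at 90 dpi were 9.48, 23.6, 14.5, 13.0 and 12.0 CPM, and CKO animals ran from 3.73 to 15.2 with a median of 7.06 CPM. The log2 fold change of Tek was -0.91 (SE 0.31, unadjusted p 0.0064, edgeR adjusted p 0.769), and without CKO_20647 it was -0.79 (adjusted p 1.00). At 12 dpi CKO animals ran from 7.94 to 17.2 CPM (median 9.20) and the WT animals had 5.65, 15.1, 18.1, 16.5 and 16.1 CPM, with the lowest of the 12 animals a WT animal. Tumours ran from 4.85 to 12.3 CPM (median 6.04) against 6.24 to 13.9 in WT (median 10.8), a log2 fold change of -0.64 (SE 0.30, adjusted p 0.0787). Of the tumours 6 of 7 were below the WT mean, and without the other, Tumor_21354, the difference was -0.86 (adjusted p 0.0136). Without WT_22062 it was -0.76 (adjusted p 0.0448). Only these 2 of 20 alternative settings passed the threshold, and in the others the adjusted p reached 0.202.

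Tie1, the orphan relative of Tek, was the least abundant of the 10 genes per kilobase. Tumours ran from 0.645 to 4.83 CPM (median 3.19), CKO captures at 90 dpi from 0.550 to 2.82 (median 1.38) and WT captures at 150 dpi from 0.613 to 4.53 (median 3.11). Tumours were higher than CKO at 90 dpi by a log2 fold change of 1.12 (SE 0.45, edgeR adjusted p 0.0401), with 5 of 7 tumours above 2 CPM. This call was lost in 11 of 20 alternative settings, among them each of the fits without Tumor_16713, Tumor_16844, Tumor_21354, CKO_20642, CKO_20647, CKO_22146 or CKO_22149, and the adjusted p reached 0.101. Against WT the difference was -0.01 (SE 0.47, adjusted p 0.987). Of the angiopoietin genes, the ligands Angpt1 (17.2 against 3.64 CPM, log2 2.41, adjusted p 0.0001) and Angpt2 (13.6 against 4.74 CPM, 1.46, adjusted p 0.0007) were higher in tumours than in WT. Ptprb, the phosphatase that restrains Tek, was lower (38.4 against 76.3 CPM, -0.98, adjusted p 0.0039). Against CKO at 90 dpi both ligands were again higher (2.38 and 1.61), and Ptprb was not called (-0.44, adjusted p 0.181).

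Vwf encodes the von Willebrand factor, which endothelial cells and platelets store and release to bind platelets to injured vessels, and in the brain it is richest in larger vessels. It was the gene of the 10 with the largest difference in tumours. The 7 tumours were at 51.0 (Tumor_16713), 52.9 (Tumor_16844), 26.8 (Tumor_21354), 17.7 (Tumor_21349), 16.2 (Tumor_16839), 13.5 (Tumor_16840) and 12.5 CPM (Tumor_21256). The 6 WT animals at 150 dpi ran from 9.60 to 23.1 CPM with a median of 12.4, and the CKO animals at 90 dpi from 7.21 to 14.2 with a median of 9.73.

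Tumor_16713, Tumor_16844 and Tumor_21354 lay above every WT animal, and the other 4 fell inside the WT range. The mean of the tumours was 27.2 ± 17.5 CPM (SD, n = 7). WT captures averaged 14.6 ± 5.85 (SD, n = 6), and 90 dpi CKO captures 9.46 ± 2.43 CPM (SD, n = 7). Vwf was higher in tumours than in WT by a log2 fold change of 0.91 (SE 0.34, edgeR adjusted p 0.0283), and higher than in CKO at 90 dpi by 1.52 (SE 0.33, adjusted p 0.0002). The difference from CKO kept its call in all 21 alternative settings. The difference from WT was 0.67 (adjusted p 0.105) without Tumor_16713, 0.68 (adjusted p 0.105) without Tumor_16844, and 0.96 (adjusted p 0.0891) with the compared groups fitted alone. Without WT_21590, WT_21591 or WT_22064 its adjusted p was 0.0668, 0.0623 and 0.0606.

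Both libraries of the 2 high tumours were high: 40.1 and 59.0 CPM of Vwf in Tumor_16713, and 58.1 and 49.8 in Tumor_16844. In Tumor_16840 the 2 libraries had 6.75 and 18.2 CPM. At 12 dpi the CKO animals ran from 5.85 to 22.6 CPM of Vwf with a median of 7.21, and the WT animals had 8.86, 17.2, 14.1, 7.54 and 15.2 CPM. The WT animals at 90 dpi had 9.48, 10.7, 10.6, 13.1 and 16.2 CPM. Between 90 and 150 dpi the difference from WT shifted by 1.31 (SE 0.50, edgeR adjusted p 0.0434), 1 of 10 genes called against 30% of all genes, and this call was lost in 13 of the alternatives (adjusted p up to 0.0990), namely with no filter on low counts and without Tumor_16713, Tumor_16844, WT_21590, WT_21591, WT_21592, WT_22064, WT_22254, WT_22255, CKO_22146, CKO_22149, CKO_22154 or CKO_22212. Platelet markers, of another cell type known to hold Vwf, summed to 4.94 CPM or less in every tumour. The part of platelets in Vwf was not tested.

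Ly6c1, a surface protein of brain endothelial cells and of some blood leukocytes, was the gene that varied most between tumours. Tumor_16713 had 2.97 CPM, Tumor_16839, Tumor_16840 and Tumor_21349 had 7.68, 10.1 and 7.95, and Tumor_16844, Tumor_21256 and Tumor_21354 had 28.4, 32.0 and 28.0 CPM. The 6 WT animals at 150 dpi ran from 23.9 to 42.4 CPM with a median of 26.9, so that 4 tumours lay below every WT animal and 3 within the WT range. The log2 fold change of Ly6c1 was -0.82 (SE 0.37, edgeR adjusted p 0.0654). It was past the threshold without Tumor_16844, Tumor_21256 or Tumor_21354 (-0.97, -1.02 and -0.95, adjusted p 0.0339, 0.0216 and 0.0375). Only these 3 of 20 alternative settings passed, and in the others the adjusted p reached 0.192. Myeloid markers, some of whose cells carry Ly6c transcripts, summed to between 199 and 1076 CPM in tumours and between 96.2 and 129 CPM in WT. Their part in Ly6c1 was not tested.

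The tumours did not share 1 vascular profile. Tumor_21354 had 5 of the 10 genes above the WT mean, Tumor_16713, Tumor_16844, Tumor_21256 and Tumor_21349 had 4, and Tumor_16839 and Tumor_16840 had 1. In Tumor_16713 Vwf was 1.81 and Cdh5 1.51 log2 units above the WT mean, while Ly6c1 was 3.29 and Flt1 1.55 log2 units below it (log2 ratios 1.81, 1.51, -3.29 and -1.55). In Tumor_16839 9 of 10 genes were below the WT mean, with a median log2 ratio of -1.25. Between tumours the SD of log2 CPM was 1.27 for Ly6c1 against 0.560 between repeat libraries of 1 animal (11 pairs), and 0.868 against 0.551 for Vwf. Each tumour value sums 2 libraries, whereas the spread between repeats is that of single libraries. The 2 spreads are therefore not on a like scale, and nothing about differences between tumours is read from which is larger. For Cldn5, Esam, Kdr, Tek and Tie1 the spread between repeat libraries was larger than that between tumours (Tek 1.06 against 0.450, Kdr 1.07 against 0.552). For all of these but Tek that rested on CKO_20647. Without its pair the spread between repeat libraries was 0.628 for Cldn5, 0.378 for Esam, 0.494 for Kdr and 0.973 for Tie1, below that between tumours (0.711, 0.799, 0.552 and 1.02), and 0.571 for Tek, still above it.

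**Figure D3:**
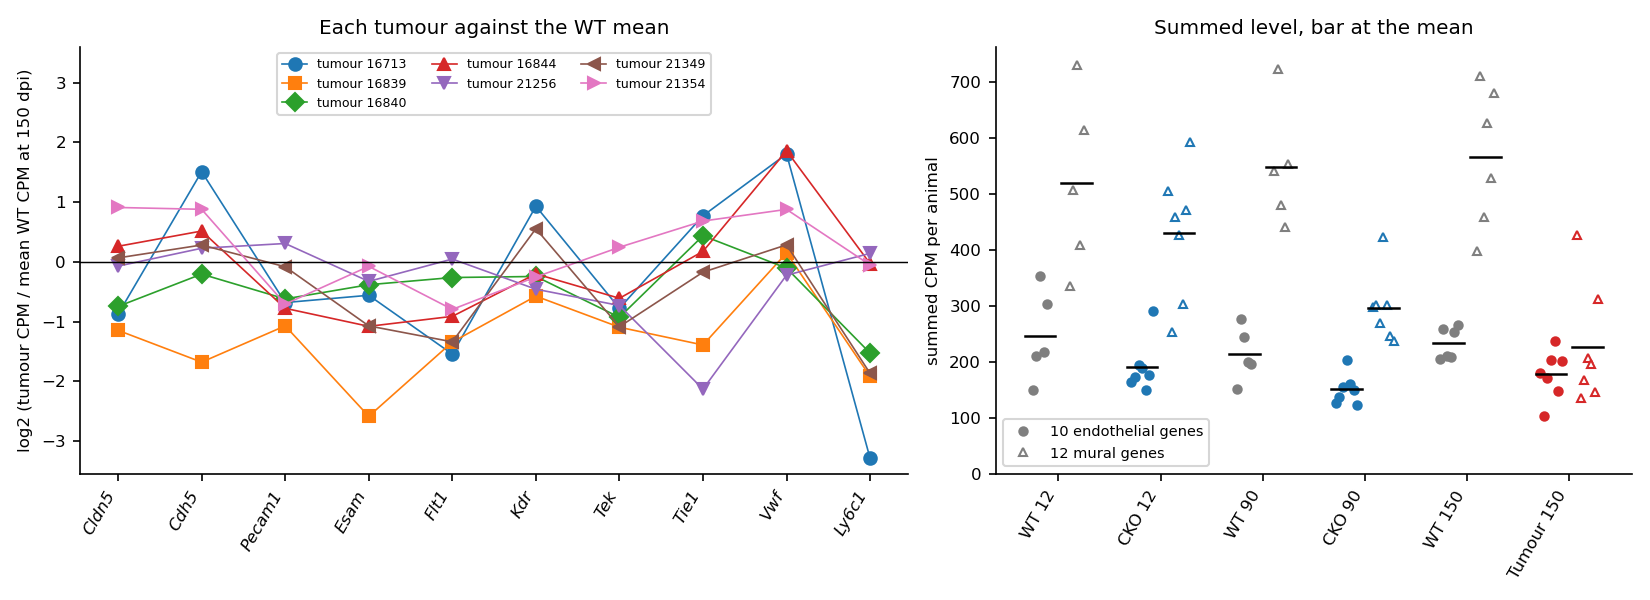
The left panel plots, for each of 7 tumours, the log2 ratio of its CPM to the mean CPM of the 6 WT animals at 150 dpi for the 10 genes, with lines joining the points of 1 tumour as a guide to the eye. Tumor_16713 and Tumor_16844 peak at Vwf, and Tumor_16713 is lowest at Ly6c1. The right panel plots the summed CPM of the 10 endothelial genes (circles) and of 12 mural genes (triangles) per animal with the group mean as a bar. Mural sums of CKO at 90 dpi and WT at 90 dpi do not overlap, and how often other sums separate was not counted.

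Summed over the 10 genes, CKO captures had 191 CPM on average (150 to 290) and WT captures 247 (150 to 353) at 12 dpi. At 90 dpi they had 151 (123 to 204) and 214 CPM (152 to 277). At 150 dpi tumours had 178 (104 to 237) and WT animals 233 CPM (205 to 266). The sums overlapped at each time. Markers of mural cells, the pericytes and smooth muscle cells around the endothelium, summed to 296 CPM in CKO (237 to 423) and 548 in WT (441 to 723) at 90 dpi, with no overlap. How often sums of other sets of genes separate was not counted. Taken singly, 2 of 12 mural genes separated the groups, against 0.758% of all genes. Of the 12 mural genes 11 had an estimate below 0 there, with a median of -1.28. Only 1, Atp13a5, a brain pericyte gene, was called, against 0.0489% of all genes (13.0 against 39.1 CPM, log2 -1.50, edgeR adjusted p 0.0159). Of the erythrocyte markers all 4 tested had an estimate above 0 in CKO against WT at 90 dpi, 3 with an unadjusted p under 0.05 and none called by edgeR. Hbb-bs, a haemoglobin chain, averaged 11.5 CPM in CKO and 3.79 in WT, and Hbb-bt had no count in WT, so that no fold is given. In the shallow WT_21167 1 count equals 9.48 CPM, so the WT values of these markers can rest on very few counts. These markers ran, summed, from 1.02 to 76.6 CPM in these CKO animals and from 1.15 to 19.0 CPM in these WT animals. The part of these cells in the endothelial estimates was not tested.

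Other endothelial genes were described from a list of 19. At 90 dpi 15 of 19 estimates for CKO against WT were below 0 (median -0.70) and none was called by edgeR, with 6 at an unadjusted p under 0.05. In tumours against WT 3 of 19 were called, all lower, where 46.2% of all genes were called and 21.9% were lower: the transcription factor Sox17 (2.23 against 6.58 CPM, -1.53, adjusted p 0.0190), the adhesion receptor Adgrf5 (25.5 against 53.3 CPM, -1.07, adjusted p 0.0012) and the sialomucin Emcn (3.69 against 7.12 CPM, -0.98, adjusted p 0.0239). In tumours against CKO at 90 dpi 2 of 19 were called, both higher, Clec14a (13.2 against 4.41 CPM, 1.62, adjusted p 0.0004) and Ly6a (42.9 against 18.9 CPM, 1.21, adjusted p 0.0350). Of all genes 49.1% were called in that comparison, and 26.4% were higher. Of 12 transporter and junction genes of the blood-brain barrier, 3 were lower in tumours than in WT, the transporters Slco1a4 (27.1 against 58.7 CPM), Slc22a8 (8.64 against 15.1) and Slco1c1 (22.9 against 39.3), and the drug efflux pump Abcg2 was higher (47.7 against 24.2 CPM, 0.94, adjusted p 0.0002).

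Genes of vessel subtypes and of vessel growth were mixed as well. The counts of genes called here stand beside 24.3% higher and 21.9% lower over all genes, and nothing particular to a list is read from them. In tumours against WT, 3 of 8 arterial genes were lower, among them the ephrin ligand Efnb2 (26.7 against 85.5 CPM, -1.69, edgeR adjusted p 3.1e-09), and 1, the matrix protein Fbln5, was higher (13.2 against 2.36 CPM). Of 3 tested venous genes the chemokine receptor Ackr1 was lower (3.80 against 29.4 CPM, -2.95, adjusted p 4.1e-12). Of 9 tested genes of growing vessels 4 were higher, among them the basement membrane collagen Col4a1 (78.8 against 18.8 CPM, 1.90, adjusted p 0.0005) and the apelin receptor Aplnr (6.82 against 0.724 CPM, 3.13, adjusted p 0.0006), and the peptide Adm was lower (1.90 against 8.75 CPM). Of 10 Wnt and norrin genes, which keep up the barrier, 4 were higher and Wnt7a was lower (9.10 against 22.3 CPM). Of 12 mural genes 6 were lower and Acta2, the actin of smooth muscle, higher. Of these genes several are also expressed by glia or fibroblasts. All 5 fibroblast markers and 7 of 9 myeloid markers were higher in tumours, as were 7 of 8 OPC markers and 2 of 5 astrocyte markers. Lower in tumours were 4 of 5 neuronal, 3 of 5 oligodendrocyte and 2 of 5 astrocyte markers, and no erythrocyte marker of 4 tested was called.

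No endothelial gene of the 10 was called over time within a genotype. In CKO from 12 to 90 dpi edgeR called 0 of 16349 genes (0%; 696 at an unadjusted p under 0.05; DESeq2 called 2). Esam (-0.98, SE 0.34), Cldn5 (-0.95, SE 0.39) and Tie1 (-1.10, SE 0.46) had unadjusted p of 0.0061, 0.0181 and 0.0208 there, and their adjusted p was 1.00. In WT 0.00612% of genes were called from 12 to 90 dpi and 0.0183% from 90 to 150 dpi. Pecam1 had an unadjusted p of 0.0268 in the latter (0.60, SE 0.26, edgeR adjusted p 0.550), with WT_21167 at 0 in the earlier group. A shift of the CKO to WT difference between 12 and 90 dpi was called for none of the 10 and for 0% of all genes (589 at an unadjusted p under 0.05).

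In the small libraries transcripts of some of the 10 genes were found in most captures of 10 Trp53-/- Nf1-/- cells. A 10-cell library held a median of 7 of the 10 genes (count above 0) at 12 dpi and 8 at 90 dpi, and a pool-and-split library 7 at both times. Cldn5 was found in 43 of 56 10-cell libraries at 12 dpi and 54 of 56 at 90 dpi, Vwf in 45 and 53, Ly6c1 in 44 and 53, and Flt1 in 42 and 52. Over all genes, the median number detected in a 10-cell library was 7496 at 12 dpi and 10071 at 90 dpi, and in a pool-and-split library 8651.5 and 8686. The part of this in the detection of the 10 genes was not tested. Cdh5 was rarest, in 7 and 14 of 56, Tie1 was found in 16 and 35, and Tek in 27 and 29. A count above 0 could mean a low level: at 12 dpi the median in 10-cell libraries was 0.482 CPM for Pecam1 and 0.406 CPM for Kdr. In pool-and-split libraries Cldn5 was found in 38 of 40 at 12 dpi and 40 of 40 at 90 dpi, and Cdh5 in 9 and 5 of 40. The libraries fell into 4 sets per time by sex and a number in the label, and library totals ran from 1.64 to 6.49 M in 10-cell and from 1.91 to 5.16 M in pool-and-split libraries.

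**Figure D4:**
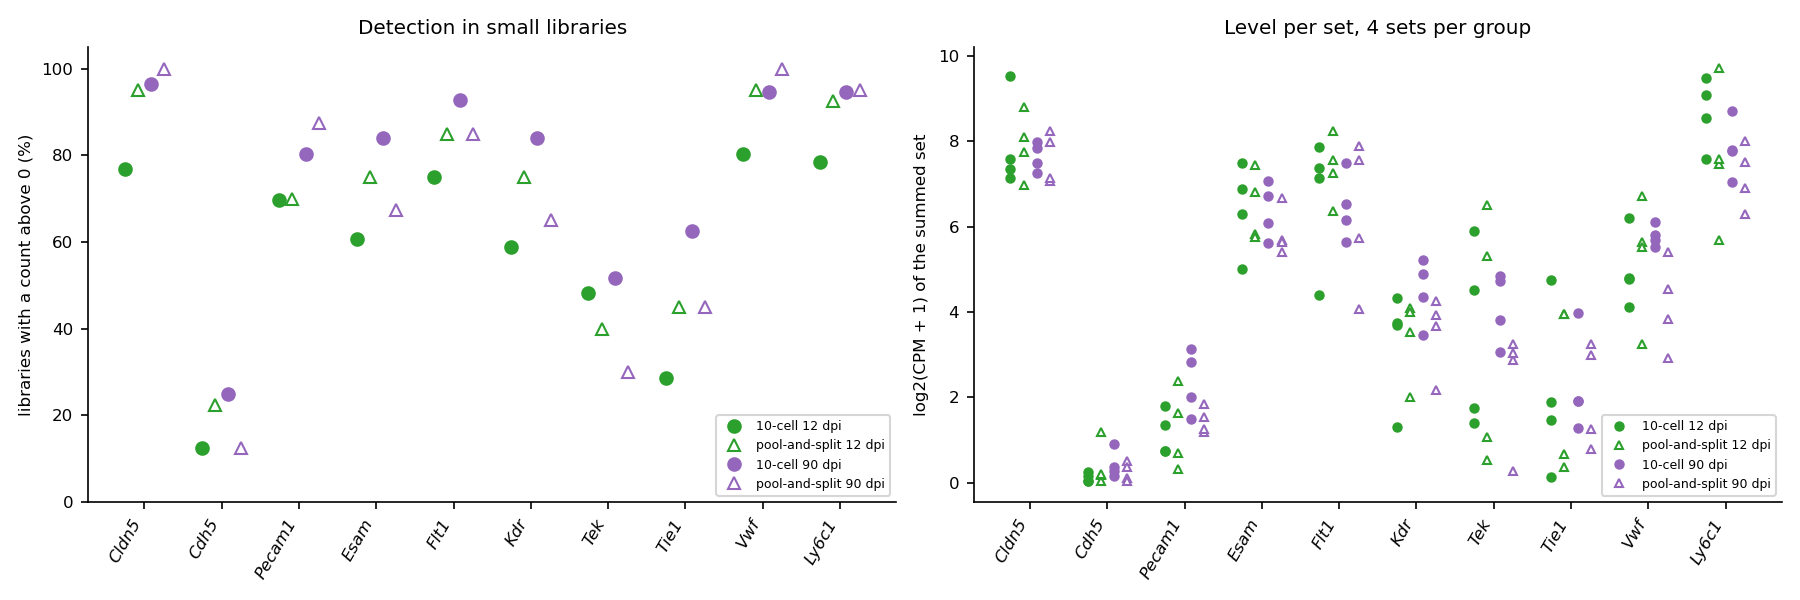
Left, the percentage of small libraries with a count above 0 for each gene (y axis from 0), by kind and time. Right, log2(CPM + 1) of each of the 4 summed sets per group, 1 point per set. Cdh5 and Pecam1 sit lowest among the set levels, Cldn5 and Ly6c1 highest, and the sets of the 2 times overlap for the genes shown in 10-cell libraries.

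At 12 dpi 12 of 56 10-cell libraries had no endothelial gene at 10 CPM or more, against 0 of 56 at 90 dpi, 2 of 40 pool-and-split libraries at 12 dpi and 0 of 40 at 90 dpi. By set these 12 were 6, 1, 1 and 4 libraries, so that 2 sets (female 1 and male 2) gave 10 of them. A median of 7111.5 genes was detected in these 12 libraries against 7572.5 in the other 10-cell libraries at 12 dpi and 10071 in 10-cell libraries at 90 dpi. The summed CPM of the 10 genes ran from 0 to 6310 in 10-cell libraries at 12 dpi and from 19.8 to 4178 at 90 dpi. In pool-and-split libraries it ran from 1.17 to 2238 and from 52.3 to 1484.

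Set levels of Ly6c1 in 10-cell libraries were 190, 542, 374 and 716 CPM at 12 dpi and 131, 222, 216 and 418 CPM at 90 dpi (female 1, female 2, male 1 and male 2). The ranges overlapped, and the log2 fold change of Ly6c1 was -0.92 (SE 0.41, edgeR adjusted p 0.700). Cldn5 had 141, 746, 193 and 162 CPM at 12 dpi and 179, 153, 251 and 228 CPM at 90 dpi, with set female 2 highest at 12 dpi. Vwf had 72.7, 26.8, 26.1 and 16.3 CPM at 12 dpi and 45.1, 50.7, 67.5 and 55.1 at 90 dpi (0.74, SE 0.57, adjusted p 0.801). Of the 9 genes tested (Cdh5 failed the filter) none was called in 10-cell sets, where edgeR called 0% of 14496 genes (1035 at an unadjusted p under 0.05; DESeq2 called 273). In pool-and-split sets none of 9 was called either, against 0% of 13402 genes (1051 at an unadjusted p under 0.05; DESeq2 called 521). DESeq2 called none of the 10 in either kind.

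A comparison of the spread between 10-cell libraries with that between aliquots of a pool addresses whether captures of 10 cells differ in a gene beyond the noise of the method. Each library counted as 1 replicate in this test, though libraries of a set share their source, so its SEs and p-values may be too small. No endothelial gene passed at 12 dpi (7 tested, 0.0254% of 7874 genes called by limma) or at 90 dpi (8 tested, 0.621% of 9658 genes). At 12 dpi the mean absolute deviation of log2(CPM + 1) of Ly6c1 was 3.43 in 10-cell and 1.76 in pool-and-split libraries, larger in 4 of 4 sets (difference 1.67, SE 0.47, unadjusted p 0.0006, limma adjusted p 0.208). Cldn5 differed by 1.07 (SE 0.43, adjusted p 0.420), also larger in 4 of 4 sets. At 90 dpi Vwf deviated by 2.04 in 10-cell and 1.21 in pool-and-split libraries, larger in 4 of 4 sets (0.83, SE 0.27, adjusted p 0.123), and Ly6c1 by 2.34 and 2.77, larger in 1 of 4 sets (-0.43, SE 0.41, adjusted p 0.702).

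Within 10-cell libraries the genes went together weakly. After centring on the set, Pearson r of log2(CPM + 1) had a median of 0.20 over 45 pairs of the 10 genes, 44 pairs were above 0, and the highest were Cldn5 with Ly6c1 (0.52) and Cldn5 with Flt1 (0.50). In pool-and-split libraries the median was 0.03 and 28 of 45 pairs were above 0. These values describe sparse counts that share library and depth.

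The genes most like the 10 in pattern were sought by Pearson r to their mean z score after centring on the group. Over the 30 bulk animals without a tumour they were Ptprb (0.93), Lsr (0.85), Cd93 (0.83), Adgrl4 (0.82) and Abcb1a (0.81), of which 3 remained among the 5 highest without WT_21167 (Ptprb 0.86, Abcb1a 0.79 and Adgrl4 0.77). Genes of the blood-brain barrier list had a median r of 0.59 there and OPC genes of 0.10, against 0.15 over all genes (0.62, -0.12 and -0.02 without WT_21167). The list of 19 other endothelial genes had only 0.18, near that of all genes (0.36 without WT_21167). Genes of growing vessels had 0.63, fibroblast markers 0.37 and myeloid markers 0.35 (0.19, 0.35 and -0.07 without WT_21167). Over the 7 tumours the most similar genes were Arhgef11 and Folr2 (0.99), Gng11 and Gm11926 (0.98) and Cndp1 (0.97), from few samples. Over the 10-cell libraries they were Ly6a (0.67), Myl9, Itih5 and Pltp (0.56) and Egfl7 (0.55). The 10 genes were not equally tied to each other: over the 30 animals the r of a gene to the mean of the other 9 was 0.78 for Cldn5, 0.76 for Esam and 0.74 for Ly6c1, but 0.28 for Vwf, 0.24 for Cdh5 and -0.04 for Kdr. This order turned on the shallow WT_21167: without it Flt1 was highest (0.68, from 0.52), Esam, Cldn5 and Ly6c1 had 0.65, 0.64 and 0.60, Kdr had 0.36, and Tie1 had 0.32 in place of 0.58. All of these r are descriptions over samples that share libraries and scaling, and they say nothing of shared control.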

How the data were processed

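Expected counts per gene, deposited by the authors, were used; per the submitters' processing notes RSEM, Bowtie2 and GRCm38 were used, with no role or version given. The 92 spike-in entries were left out. Counts of the 2 libraries of an animal were summed and rounded. All 37 animals entered 1 edgeR quasi-likelihood fit (version 4.0.16, R 4.3.3) with sex as covariate, TMM scaling and Benjamini-Hochberg adjustment (biological coefficient of variation 0.418). The filter on low counts was filterByExpr with a minimum of 10 per library and 15 in total. SEs were derived from the F statistic. Where a gene varied less than Poisson noise, edgeR used the larger of 2 p-values, so that a few uncalled p exceed what the SE gives (Esam and Tie1 at 12 dpi, Tek in tumours against CKO). Small libraries were summed per set (14 10-cell and 10 pool-and-split libraries per set); whether a set is 1 animal is not given, so p-values there may measure technical spread. Spread was compared with limma 3.58.1 on absolute deviations of log2(CPM + 1) for genes detected in 50% of libraries. Each library counted as 1 replicate in that test. Sets as replicates were run as an alternative, and none of the 10 genes was called. Calls and the sign of changes were checked on simulated counts for some of the comparisons. SEs and intervals (95%) were not checked in this way. Members of the gene set, the 17 other lists and the tests were chosen with earlier results of these data known. The 5 most similar genes were named by a stated rule. Alternatives were DESeq2 1.42.0, RLE size factors, other filters (none, or a mean of 10 CPM), no sex covariate, the deepest library per animal, the compared groups alone, a replicate block for sets, and each animal or set left out.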

Additional observations from a re-analysis of the deposited data

Results flagged for a closer look

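Of 100 groups of 4 to 7 samples examined (a gene in a group), 13 held a sample whose gap to the nearest other sample was large for the range of the group, in 9 samples. Chance gives about 1 in 20.

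CKO_22364 at 12 dpi was high for Ly6c1 (50.1 CPM; others 17.0 to 25.5), Tek (17.2; 7.94 to 10.8) and Vwf (22.6; 5.85 to 10.1). WT_22056 at 12 dpi was low for Tek (5.65 CPM; others 15.1 to 18.1). CKO_20647 at 90 dpi was high for Cdh5 (30.8 CPM; others 5.65 to 11.3), from 1 of its 2 libraries. WT_21167 at 90 dpi, the library with the fewest counts, had 0 CPM of Cldn5 (others 5.45 to 12.4), 0 of Esam (5.80 to 14.2) and 0 of Pecam1 (22.6 to 30.9).

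At 150 dpi Tumor_16839 was low for Esam (1.21 CPM; others 3.45 to 6.91), Tumor_21354 high for Tek (12.3; 4.85 to 6.78) and WT_22064 low for Tie1 (0.613; 2.27 to 4.53). Among pool-and-split sets, male 1 at 12 dpi was high for Cdh5 (1.28 CPM; others 0.0249 to 0.149) and female 1 at 90 dpi low for Tek (0.212 CPM; others 6.29 to 8.53).

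The difference of tumours or CKO from WT changed between 90 and 150 dpi for Vwf by 1.31 on the log2 scale (SE 0.50, edgeR adjusted p 0.0434).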

How the results depend on the processing

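The count of the 10 genes called stayed at 0 under every alternative run in the comparisons of CKO with WT at 12 and 90 dpi, over time in CKO and WT, in the shift of the CKO to WT difference between 12 and 90 dpi, in both kinds of sets and in both comparisons of spread. In tumours against WT it was 2, became 0 with the compared groups alone and ran from 1 to 5 with 1 animal left out (1 without Tumor_16713, WT_21590, WT_21591 or WT_22064, 4 without Tumor_21256 and 5 without Tumor_21354). In tumours against CKO at 90 dpi it was 3, with 2 to 3 under other settings and 1 to 3 with 1 animal left out (1 without Tumor_16713). For the shift of the difference from WT between 90 and 150 dpi it was 1, became 0 with no filter on low counts and was 0 or 1 with 1 animal left out. The cause of these changes was not tested. Of 2322 recomputed values of single genes, 162 changed sign, all of uncalled genes, in 45 combinations of gene and comparison. A called gene fell below the threshold in 32 of them and an uncalled one passed it in 9.

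RLE size factors and DESeq2 raised the share of called genes that were higher from 52.6% to 62.1% and 62.2% in tumours against WT, from 53.8% to 63.5% and 63.6% in tumours against CKO, and from 47.2% to 57.3% and 58.6% in the change from 90 to 150 dpi. A fit with the replicate block called 0 genes of the 10 in both kinds of sets, the same as without it. Sets with the same number did not deviate together (r from -0.0391 to 0.0189 over 8 pairs, 0 of which correlated best with their own number). With a count of at least 5 in place of above 0, the mean number of the 10 genes found in a small library was 5.36 in place of 6.83. Of the 5 most similar genes in animals without a tumour 3 remained without WT_21167. Without the pair of CKO_20647, an alternative chosen after seeing the data, the median SD between repeat libraries over the 10 genes was 0.461 in place of 0.842. Low counts limit Tie1 in bulk and Cdh5 in small libraries.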
